A study of Mus musculus with 6 samples.

Results

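The genes examined were 8 regulators of skeletal muscle formation and of muscle stem cells, the satellite cells: *Pax3*, *Pax7*, *Myf5*, *Myod1*, *Myog*, *Myf6*, *Mymk* and *Mstn*. They were taken by gene name, from a list made with earlier results of these data known. All 8 were found among the 55487 genes of the count table, and 7 of them were among the 17175 genes with enough reads to be tested. RNA of knee joint cartilaginous tissue from mice at postnatal day 6 (P6) was sequenced in 3 wild-type (WT) libraries and 3 libraries carrying a conditional deletion of *Hbb*, the adult β-globin genes, in chondrocytes (*Hbb*-cKO). Both groups shared age, tissue and library preparation. In the study's mouse lines the floxed *Hbb* allele was made on C57BL/6J and spans *Hbb-bs* and *Hbb-bt*, and the name *Hbb*-cKO is given to floxed homozygotes carrying *Col2a1-Cre*ERT2, a tamoxifen-inducible Cre driven by the promoter of the cartilage collagen gene *Col2a1*. The sequencing methods and the sample labels name neither the Cre line, nor tamoxifen, nor whether WT mice carried the floxed allele, nor how many mice gave a library. A legend of the study, on globin levels by RNA sequencing and proteomics of cartilage, gives 3 biologically independent samples and names no genotype. Independence of the libraries in both groups was therefore taken as given. The p-values below measure the spread between these libraries.

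In skeletal muscle formation, PAX3 and PAX7 mark embryonic progenitors and, after birth, PAX7 marks the satellite cells that lie against the fibres. MYF5 and MYOD commit these cells to the muscle fate, MYOG drives their differentiation into fusing myocytes, and MYF6 (also called MRF4) is most abundant in maturing fibres. These last 4 are basic helix-loop-helix factors that bind short E-box sequences together with E proteins, whereas Mymk (myomaker) is a membrane protein needed for fusion and myostatin, encoded by *Mstn*, is a secreted inhibitor of muscle growth.

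The libraries held 16544800 to 20969914 counts assigned to genes. *Hbb-bs* and *Hbb-bt* together measured 6912 to 16811 counts in every 1000000 (CPM, scaled with trimmed-mean factors) in WT and 4195 to 5444 CPM in *Hbb*-cKO, and neither gene passed the test (log2 fold change -1.28 and -1.32, adjusted p = 0.218 and 0.241 in edgeR). *Col2a1* was at 22280 to 38294 CPM in 5 libraries and at 11307 CPM in *Hbb*-cKO replicate 1, so cartilage transcripts were abundant throughout. Muscle fibre transcripts were abundant too, since 24 genes of the contractile apparatus (the sarcomere list) took 4.29%, 4.59% and 6.94% of all WT counts in replicates 1 to 3, and 4.94%, 3.94% and 4.16% of those of *Hbb*-cKO. WT replicate 3 thus held the most muscle fibre RNA. It was also the sole WT library with counts on 4 Y-linked genes (2109, against 0 in WT replicates 1 and 2 and 1010 to 2907 in *Hbb*-cKO), so without it genotype and Y-linked expression cannot be told apart. *Xist*, expressed from the inactive X chromosome, had 10430, 8739 and 2725 counts in WT replicates 1 to 3 and 5052, 6 and 8079 counts in *Hbb*-cKO replicates 1 to 3. WT replicate 3 and *Hbb*-cKO replicates 1 and 3 thus held *Xist* and Y-linked counts together, while *Hbb*-cKO replicate 2 was nearly without *Xist*. Each member is therefore given with and without WT replicate 3 and with the Y-linked level as a covariate.

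The promoters of the members are shown because the myogenic factors of the list bind E-boxes, written CANNTG, a motif that reads as CANNTG on either strand. RefSeq promoter windows on GRCm38.p6, the 250 bases before a transcription start, were on hand for 4 of the 8 members, namely *Myog*, *Mstn*, *Myf5* and *Pax7*. Each of the following sequences is in lower case with every CANNTG match in capitals. They are, in order, chr1:134289754-134290003 on the plus strand, chr1:53061390-53061639 on the plus strand and chr10:107486135-107486384 on the minus strand.
Myog: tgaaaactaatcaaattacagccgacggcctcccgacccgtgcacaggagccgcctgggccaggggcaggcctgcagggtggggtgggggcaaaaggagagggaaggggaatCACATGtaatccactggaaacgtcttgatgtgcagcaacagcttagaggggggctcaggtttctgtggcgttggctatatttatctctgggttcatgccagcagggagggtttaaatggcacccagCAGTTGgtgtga
Mstn: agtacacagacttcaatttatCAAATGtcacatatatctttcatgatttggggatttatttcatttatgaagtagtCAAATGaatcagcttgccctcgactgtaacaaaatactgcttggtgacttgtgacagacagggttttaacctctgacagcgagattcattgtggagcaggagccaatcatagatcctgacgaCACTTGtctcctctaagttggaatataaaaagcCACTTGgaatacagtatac
Myf5: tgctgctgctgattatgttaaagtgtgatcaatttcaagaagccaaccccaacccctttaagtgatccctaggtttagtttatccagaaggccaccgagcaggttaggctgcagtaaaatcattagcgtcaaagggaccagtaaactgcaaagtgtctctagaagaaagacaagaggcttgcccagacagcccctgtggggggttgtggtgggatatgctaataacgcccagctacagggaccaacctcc
The *Myog* window held 2 matches, CACATG starting 138 bases and CAGTTG starting 12 bases before the RefSeq start, which lies 15 bases inside the gene as the count table places it. The *Mstn* window held 4 matches, CAAATG at 229 and 174 bases and CACTTG at 52 and 19 bases before the start. The windows of *Myf5* and *Pax7* held 0 matches. The *Pax7* start of RefSeq lay 560 bases inside the gene as the count table places it. The whole *Pax7* window thus also lay inside that gene and not before its start. None of the 4 windows held CAGCTG, a form of CANNTG. Of all 32851 windows of this length, 66.2% held at least 1 CANNTG, 31.8% held 2 or more, 3.84% held 4 or more and 13.0% held CAGCTG. A match is a description of letters and not a bound site.

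Gene lengths differ, so levels were compared between genes per kilobase of annotated exon. *Myog* was the most abundant member in WT at 35.8 ± 3.81 CPM per kb (mean ± s.e.m., n = 3), followed by *Myf6* at 22.7 ± 6.54, *Myod1* at 14.0 ± 0.829, *Mymk* at 12.2 ± 1.40, *Mstn* at 7.78 ± 1.72, *Myf5* at 1.67 ± 0.496 and *Pax7* at 1.36 ± 0.136 CPM per kb. *Pax3* came last at 0.0159 CPM per kb, and the means in *Hbb*-cKO followed the same order. Genes of differentiation and fusion were thus measured at higher levels per length than the satellite cell gene *Pax7*. Among neighbours in this order, the WT ranges did not overlap between *Mstn* and *Myf5* and between *Pax7* and *Pax3*, and they overlapped for the other 5 pairs. Within libraries, *Myog* exceeded *Myf6* in 6 of 6 and *Mymk* exceeded *Mstn* in 6 of 6, while *Myf5* exceeded *Pax7* in 4 of 6.

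**Figure D1:**
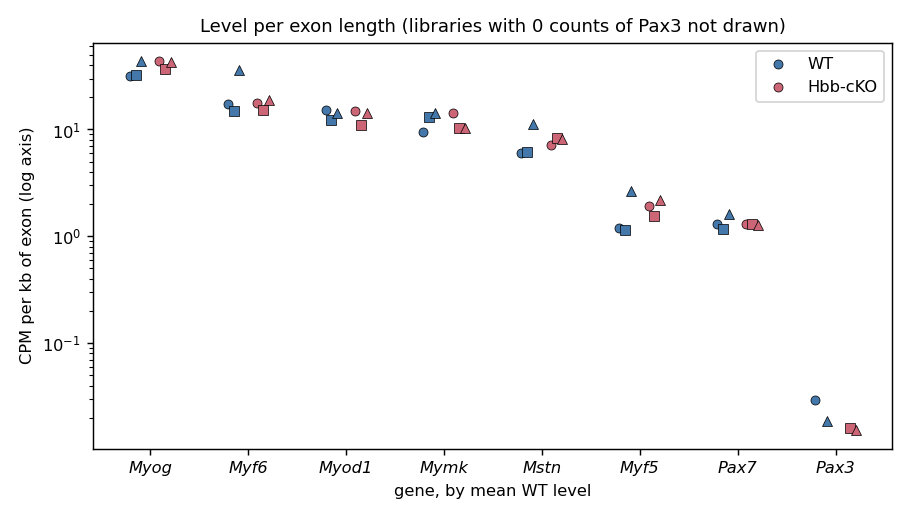
Level of each member per library, in CPM per kilobase of exon on a log axis, for the 3 WT and 3 *Hbb*-cKO libraries, with genes ordered by their WT mean and circles, squares and triangles for replicates 1 to 3. Libraries with 0 counts of *Pax3* are not drawn. *Myog* lies at the top with means of 35.8 (WT) and 41.0 (*Hbb*-cKO) CPM per kb, and *Pax7* has means of 1.36 and 1.30 CPM per kb.

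None of the 7 tested members passed the test between the genotypes. In edgeR 0 of 7 passed an adjusted p of 0.05, beside 0.105% of all tested genes (0.0349% higher and 0.0699% lower in *Hbb*-cKO), 0 of 7 had an unadjusted p under 0.05, beside 10.1% of all tested genes, and DESeq2 called 0 of 7, beside 1.45%. The values of WT and *Hbb*-cKO libraries overlapped for each of the 7, whereas the groups did not overlap for 17.7% of all tested genes. Log2 fold changes ran from -0.39 to 0.19, with a median of -0.06 beside -0.01 over all tested genes. When known changes were simulated on these libraries, the edgeR test found 3 of 50 genes at a 1.5-fold change, 21 of 50 at 2-fold and 45 of 50 at 4-fold, so changes under 2-fold were mostly not detectable with 3 libraries a group. In bulk RNA, fewer cells of a type and less RNA per cell cannot be told apart.

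**Figure D2:**
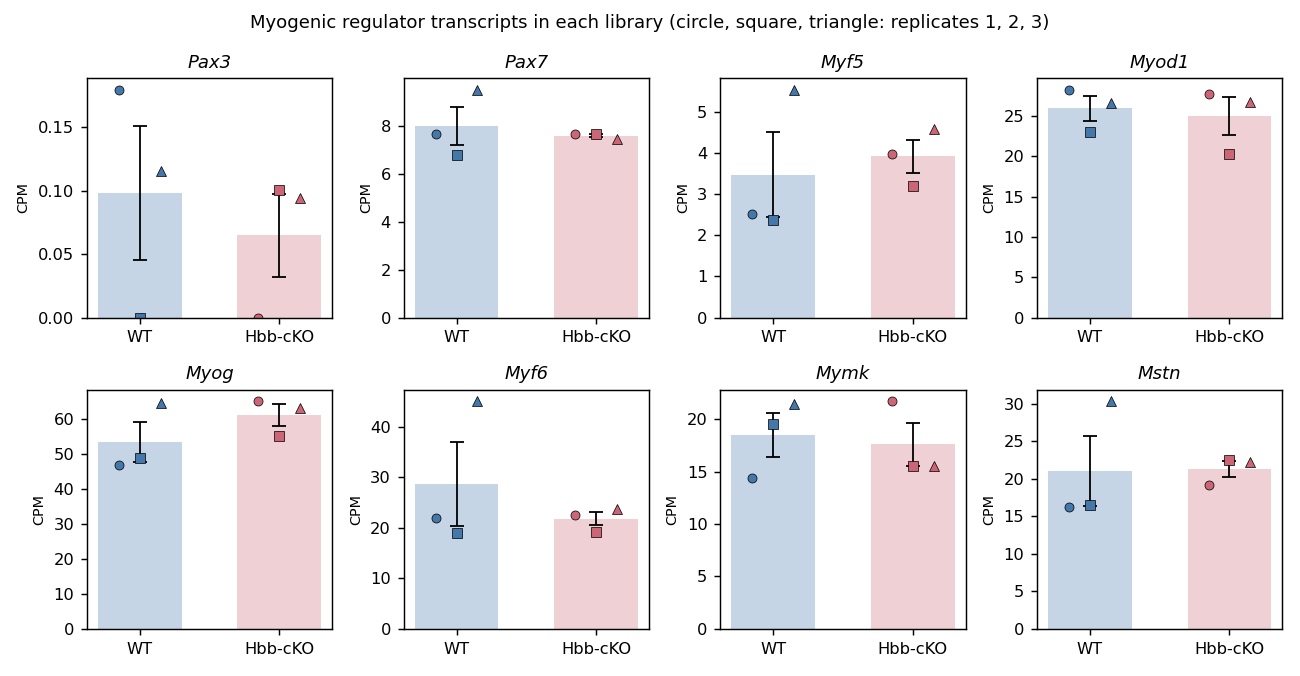
CPM of each of the 8 members in the 3 WT and 3 *Hbb*-cKO libraries, each panel on its own axis from 0. Bars are means, error bars are s.e.m. (n = 3), and circles, squares and triangles are replicates 1 to 3. The groups overlap in every panel. WT replicate 3 is the highest WT library for *Myf6* (45.1 CPM), *Mstn* (30.3 CPM), *Myog* (64.8 CPM), *Myf5* (5.54 CPM), *Pax7* (9.52 CPM) and *Mymk* (21.5 CPM).

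*Pax3* (chromosome 1, 78101267 to 78197134, minus strand, 9 exons), a factor of embryonic muscle progenitors, was at the limit of detection. WT replicates 1 to 3 held 3, 0 and 2 reads of it, and the *Hbb*-cKO replicates 0, 2 and 2. The 9 counts over 6 libraries correspond to 0.0823 CPM (exact Poisson 95% interval 0.0376 to 0.156, counting error only), and no library exceeded the 3 counts that a count of 0 allows. No comparison between genotypes was made for it.

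*Pax7* (chromosome 4, 139737062 to 139833528, minus strand, 9 exons), the satellite cell factor, was at 7.67, 6.81 and 9.52 CPM in WT and 7.67, 7.67 and 7.46 CPM in *Hbb*-cKO. All 3 *Hbb*-cKO libraries lay inside the WT range, and they differed from each other by less than counting error would give, with a coefficient of variation of 1.63% against 8.20% expected from counts alone. Its log2 fold change was -0.07 (SE 0.17, 95% interval -0.48 to 0.33, adjusted p = 0.929 in edgeR) and it was 0.07 without WT replicate 3 and -0.29 with the Y-linked covariate.

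*Myf5* (chromosome 10, 107482908 to 107486134, minus strand, 3 exons) lies next to *Myf6* on the same strand, and 6718 bases separate the pair. *Myf5*, the earliest of the 4 factors in the embryo, was at 2.52, 2.37 and 5.54 CPM in WT and 3.98, 3.21 and 4.58 CPM in *Hbb*-cKO. WT replicate 3 was the highest of the 6 libraries and the other WT libraries were the lowest. For *Myf5* the log2 fold change was 0.17 (SE 0.35, 95% interval -0.64 to 0.99, adjusted p = 0.918 in edgeR) and 0.68 (SE 0.26, adjusted p = 0.364) without WT replicate 3, so its size rested on that library. With the Y-linked covariate it turned to -0.33 (adjusted p = 0.676 in edgeR). With 39 to 97 counts per library, *Myf5* had the fewest counts of the tested members.

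*Myod1* (chromosome 7, 46376474 to 46379099, plus strand, 3 exons), the factor of commitment in myoblasts, was at 28.3, 23.0 and 26.7 CPM in WT and 27.8, 20.3 and 26.8 CPM in *Hbb*-cKO. The groups covered nearly the same range, and WT replicate 3 was not the highest library here. Between genotypes the log2 fold change was -0.06 (SE 0.16, 95% interval -0.42 to 0.30, adjusted p = 0.942 in edgeR) and -0.04 without WT replicate 3, and it was -0.05 with the Y-linked covariate.

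*Myog* (chromosome 1, 134289989 to 134292548, plus strand, 3 exons), the differentiation factor, was at 46.9, 48.8 and 64.8 CPM in WT and 65.2, 55.1 and 63.4 CPM in *Hbb*-cKO. WT replicates 1 and 2 lay under all *Hbb*-cKO libraries and WT replicate 3 lay among them. The log2 fold change was 0.19 (SE 0.15, 95% interval -0.15 to 0.54, adjusted p = 0.720 in edgeR) and 0.36 (SE 0.12, adjusted p = 0.317) without WT replicate 3. With the Y-linked covariate it was -0.011 (adjusted p = 0.982 in edgeR).

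*Myf6* (chromosome 10, 107492853 to 107494737, minus strand, 3 exons), the factor of maturing fibres, was at 21.9, 18.9 and 45.1 CPM in WT and 22.6, 19.2 and 23.6 CPM in *Hbb*-cKO. WT replicate 3 stood alone, and the other 5 libraries lay between 18.9 and 23.6 CPM. Its coefficient of variation in WT was 50.0% against 4.54% expected from counts alone, whereas in *Hbb*-cKO it was 10.6%. The log2 fold change of -0.39 (SE 0.32, 95% interval -1.15 to 0.37, adjusted p = 0.742 in edgeR) turned to 0.10 without WT replicate 3 and was -0.89 with the Y-linked covariate (adjusted p = 0.118 in edgeR).

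*Mymk* (chromosome 2, 27061636 to 27072179, minus strand, 5 exons), the fusion gene, was at 14.4, 19.6 and 21.5 CPM in WT and 21.7, 15.5 and 15.5 CPM in *Hbb*-cKO. High and low libraries occurred in each group, with *Hbb*-cKO replicate 1 the highest and WT replicate 1 the lowest. The log2 fold change was -0.07 (SE 0.20, 95% interval -0.54 to 0.40, adjusted p = 0.944 in edgeR) and 0.05 without WT replicate 3, and it was -0.22 with the Y-linked covariate.

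*Mstn* (chromosome 1, 53061640 to 53068079, plus strand, 3 exons), myostatin, was at 16.2, 16.5 and 30.3 CPM in WT and 19.2, 22.5 and 22.2 CPM in *Hbb*-cKO. The *Hbb*-cKO libraries lay between WT replicate 2 and WT replicate 3. Its log2 fold change was 0.02 (SE 0.25, 95% interval -0.56 to 0.59, adjusted p = 0.990 in edgeR) and 0.38 (SE 0.14, adjusted p = 0.336) without WT replicate 3. With the Y-linked covariate it turned to -0.43 (adjusted p = 0.251 in edgeR).

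**Figure D3:**
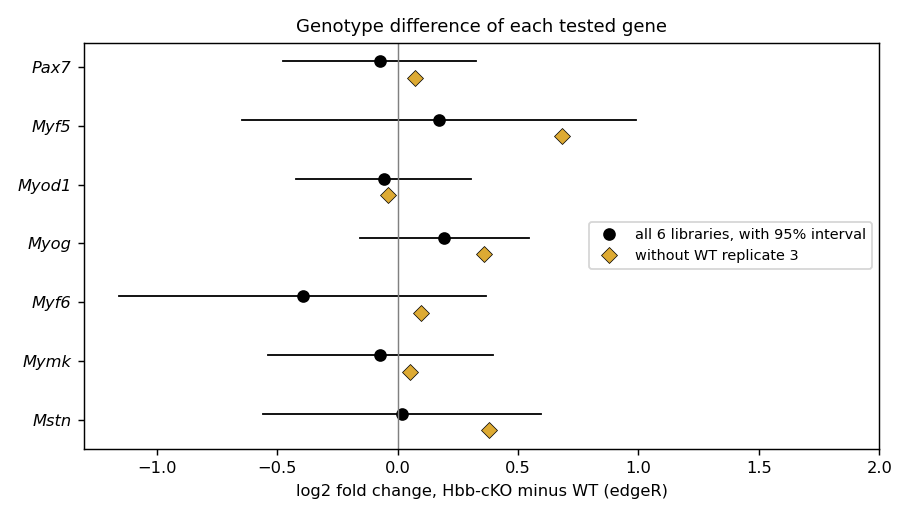
Log2 fold change of *Hbb*-cKO over WT from edgeR for the 7 tested members, with black points and 95% intervals from all 6 libraries and yellow diamonds from the 5 libraries without WT replicate 3. Every interval includes 0, and *Myf6* moves from -0.39 to 0.10.

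Because WT replicate 3 held more muscle fibre RNA, each member was also set against the summed CPM of the 24 sarcomere genes in its own library. *Myog* stood at 1103, 1031 and 927 counts in every 1000000 sarcomere counts in WT and 1336, 1397 and 1539 in *Hbb*-cKO. All 3 *Hbb*-cKO libraries were above all 3 WT libraries, and the geometric mean was 1.40-fold higher (log2 difference 0.48, SE 0.09, exact permutation p = 0.1, two-sided). *Myf5* stood at 59.2, 50.0 and 79.1 on this scale in WT and 81.5, 81.3 and 111 in *Hbb*-cKO, again without overlap but with the nearest libraries close together (1.46-fold, log2 difference 0.55, SE 0.24, exact permutation p = 0.1). An exact p of 0.1 is the smallest that 3 against 3 libraries allow, and over the 7 members the Benjamini-Hochberg value of *Myog* and *Myf5* was 0.35 in this exact permutation test, so neither difference passed. On this scale 2 of 7 members were higher in *Hbb*-cKO without overlap, beside 12.0% of all tested genes, and 0 of 7 lower, beside 1.27%, and the median of all tested genes was itself 0.27.

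The other 5 members overlapped between genotypes on this scale. Log2 differences were 0.36 for *Mstn*, 0.22 for *Pax7*, 0.21 for *Mymk*, 0.21 for *Myod1* and -0.01 for *Myf6*, so that those of *Myog*, *Myf5* and *Mstn* were above the median of all tested genes. The sarcomere sum itself differed by -0.28 on the log2 scale (exact permutation p = 0.3). Left without WT replicate 3, the difference was 0.41 for *Myog* and 0.73 for *Myf5*. Leaving *Myh8* out of the sum brought the *Myf5* groups into overlap (0.55, exact permutation p = 0.3).

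**Figure D4:**
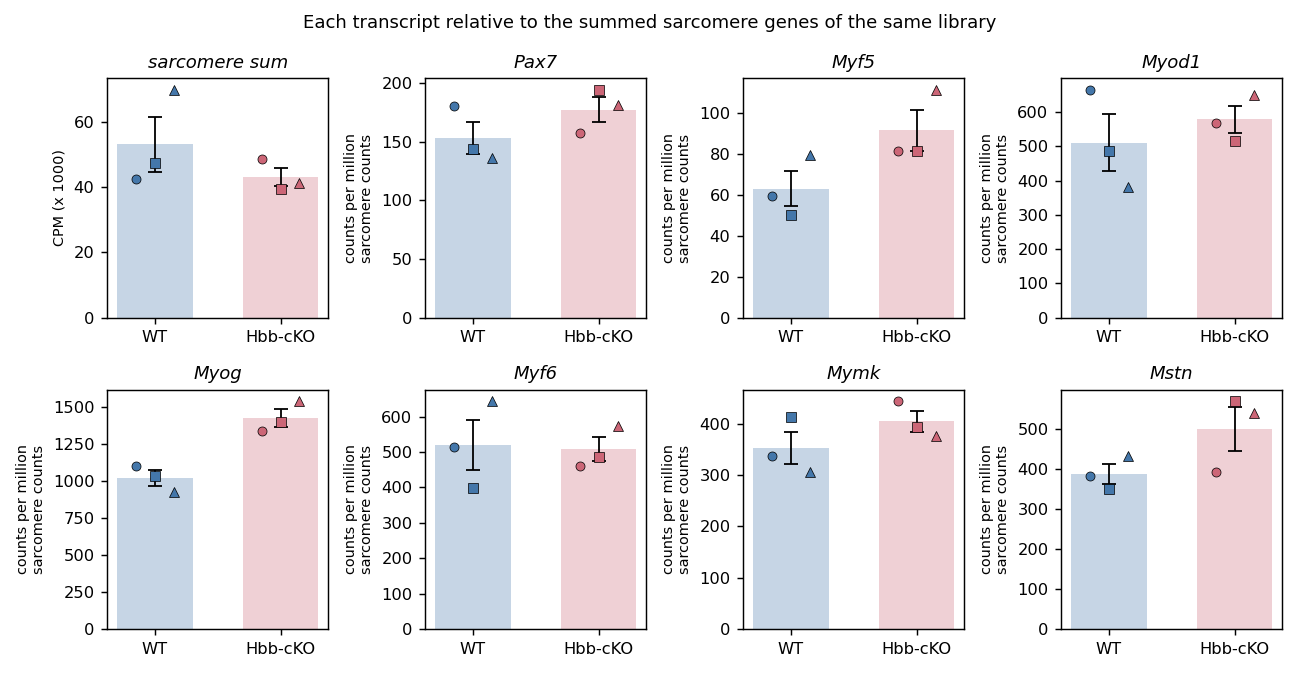
Each tested member relative to the summed counts of the 24 sarcomere genes, scaled to CPM of that sum, in the WT and *Hbb*-cKO libraries, with the sum itself in CPM in the upper left panel. Bars from 0 are means, error bars are s.e.m. (n = 3), and circles, squares and triangles are replicates 1 to 3. The *Myog* values of *Hbb*-cKO (1336 to 1539) all lie above those of WT (927 to 1103), and the *Myf6* values overlap.

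Ratios between members need no outside reference. Of the 21 pairs of tested members, 3 had ratios that did not overlap between genotypes, beside 17.4% of all pairs of tested genes above 0 in every library. Each of the 3 had the smallest exact permutation p of 0.1 and a Benjamini-Hochberg value of 0.70 over the 21 exact tests. *Myf6* per *Myf5*, the neighbours on chromosome 10, was 8.71, 7.97 and 8.14 in WT and 5.67, 5.98 and 5.16 in *Hbb*-cKO (log2 difference -0.56). The 3 WT ratios were close together although each gene alone was much higher in WT replicate 3. *Myog* per *Myf6* was 2.14, 2.58 and 1.44 in WT and 2.89, 2.87 and 2.68 in *Hbb*-cKO (log2 difference 0.50), and *Myog* per *Pax7* was 6.12, 7.17 and 6.81 in WT and 8.50, 7.19 and 8.51 in *Hbb*-cKO (log2 difference 0.27). None of these ratios passed the correction.

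Across the 6 libraries the level of *Myf6* was highest where the sarcomere sum was highest, in WT replicate 3. Its Pearson r on the log2 scale was 0.885 (exact permutation p = 0.075, Benjamini-Hochberg value 0.259 over 7 members) and its Spearman rho was 0.429, and without the 2 libraries farthest from the median of the sum, WT replicate 3 and *Hbb*-cKO replicate 2, r was -0.506. The relation rested on those libraries. For *Mymk*, r was 0.768 (exact permutation p = 0.0444, Benjamini-Hochberg value 0.259), rho was 0.714 (exact permutation p = 0.136) and r without the same libraries was 0.947. *Mymk* did not pass the correction. Values of r for the remaining 5 members ran from 0.318 (*Myod1*) to 0.769 (*Pax7*). Without the same 2 libraries, r was -0.288 for *Pax7*, -0.191 for *Myf5*, -0.317 for *Mstn*, -0.350 for *Myod1* and 0.105 for *Myog*. These 5 positive values thus rested on those libraries too. No correlation was computed within the 4 libraries with Y-linked counts or the 2 without.

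Around the members, lists of 16 satellite cell genes, 16 upstream and partner factors, 13 repressors of the myogenic factors, 12 fusion genes, 8 genes of the muscle synapse, 20 genes of the myostatin pathway and the 24 sarcomere genes were examined. No gene of any of these 7 lists passed an adjusted p of 0.05 in edgeR, beside 0.105% of all tested genes. DESeq2 called *Heyl* and *Myh2* (higher) and *Adgrb1* (lower), beside 1.45% of all tested genes. Counts of genes with an unadjusted p under 0.05 or without overlap in the following lists stand beside 10.1% and 17.7% of all tested genes.

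**Figure D5:**
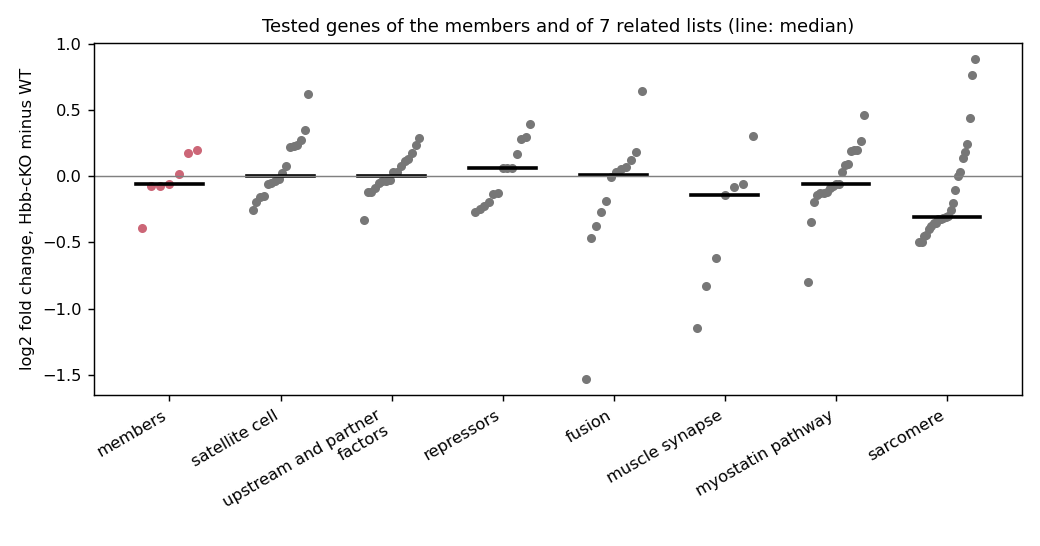
Log2 fold change of *Hbb*-cKO over WT for every tested member and every tested gene of the 7 related lists, with 1 point a gene and a line at the median. Medians lie between -0.14 and 0.06 except for the sarcomere list at -0.30, and *Adgrb1* is the lowest point at -1.53.

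Of the satellite cell list, 8 genes were higher and 8 lower by sign, 2 had an unadjusted p under 0.05, the groups of 2 of 16 did not overlap and the median log2 fold change was 0.00. *Heyl*, a Notch effector, was at 24.9 ± 1.20 CPM in WT and 38.1 ± 2.29 CPM in *Hbb*-cKO (log2 fold change 0.62, SE 0.13, adjusted p = 0.173 in edgeR, 0.0132 in DESeq2). *Vcam1*, an adhesion molecule, was at 17.8 ± 0.258 and 22.7 ± 1.08 CPM (0.35, adjusted p = 0.383). *Cdh15*, M-cadherin, overlapped at 31.5 ± 3.68 and 38.1 ± 5.83 CPM (0.27), as did *Itga7*, the laminin receptor subunit of muscle (0.22), and *Spry1*, an inhibitor of growth factor signalling (-0.19). *Heyl* and *Vcam1* are also expressed in vessels and other tissues of a joint, so their values are not those of satellite cells alone.

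Of the 16 upstream and partner factors, 8 were higher and 8 lower, none had an unadjusted p under 0.05 in edgeR and DESeq2 called none. The E protein gene *Tcf3* (0.11) and the MEF2 genes *Mef2a* (-0.33) and *Mef2c* (0.29) overlapped between genotypes, while the libraries did not overlap for *Eya2*, which encodes a transcriptional cofactor (0.23, adjusted p = 0.621 in edgeR). Of the 13 repressors, 7 were higher and 6 lower, 1 had an unadjusted p under 0.05 and the median was 0.06. *Bhlhe40*, a helix-loop-helix repressor, was at 76.7 ± 2.19 and 94.2 ± 3.30 CPM (0.30, adjusted p = 0.386 in edgeR) and was the sole gene of its list without overlap. *Msc*, encoding musculin, was at 0.39, *Hes1*, a Notch target, at 0.28 and *Mdfi*, encoding an inhibitor of MyoD family proteins, at -0.27, all with overlap.

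All 12 fusion genes were tested, 6 were higher and 6 lower, 3 had an unadjusted p under 0.05, the groups of 4 did not overlap and the median was 0.01. *Mymx*, which encodes myomixer, the partner of myomaker, was at 7.03 ± 0.788 CPM in WT and 7.63 ± 1.05 CPM in *Hbb*-cKO (log2 fold change 0.12). *Adgrb1*, a receptor for phosphatidylserine also known in brain and phagocytes, was at 4.01, 3.47 and 3.00 CPM in WT and 1.02, 1.55 and 1.04 CPM in *Hbb*-cKO. All its *Hbb*-cKO libraries lay below all its WT libraries, and its log2 fold change was -1.53 (SE 0.27, adjusted p = 0.115 in edgeR, 0.00384 in DESeq2). *Nphs1*, nephrin, was at 43.6 ± 2.78 and 33.5 ± 1.35 CPM (-0.38, adjusted p = 0.344 in edgeR), *Cav3*, muscle caveolin, at 120 ± 15.4 and 87.2 ± 7.24 CPM (-0.46), and *Boc*, a cell surface receptor of myoblasts, at 193 ± 1.34 and 160 ± 15.9 CPM (-0.27). *Boc* was at 133, 187 and 160 CPM in *Hbb*-cKO replicates 1 to 3, in the same order as *Col2a1*. In WT replicates 1 to 3 *Boc* was at 192, 192 and 196 CPM. There replicate 3 was the highest for *Boc* and the lowest for *Col2a1*. The source cells of *Boc* were not tested.

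Genes of the muscle synapse are textbook targets of the myogenic factors, and 7 of 8 were tested, with 1 higher and 6 lower, 1 unadjusted p under 0.05 and a median of -0.14. *Chrna1*, the α-subunit of the acetylcholine receptor, was at 50.8, 37.9 and 54.1 CPM in WT and 36.3, 22.8 and 33.9 CPM in *Hbb*-cKO (log2 fold change -0.62, SE 0.21, adjusted p = 0.355 in edgeR). It was the sole gene of its list without overlap. *Musk*, the receptor kinase of the synapse, was at 1.86, 1.89 and 9.63 CPM in WT and 2.73, 1.45 and 1.89 CPM in *Hbb*-cKO, so that its log2 fold change of -1.15 turned to 0.11 without WT replicate 3. The adult subunit gene *Chrne* was at -0.82 and the fetal subunit gene *Chrng* at 0.30, each with overlap, and at -0.40 and 0.60 without WT replicate 3. Of 7 RefSeq windows for 6 of these genes, 6 held CANNTG and 4 held CAGCTG.

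In the myostatin pathway, 19 of 20 genes were tested, 8 were higher and 11 lower, 2 had an unadjusted p under 0.05, the groups of 3 did not overlap and the median was -0.06. *Gdf11*, the closest relative of *Mstn*, was at 11.7 ± 0.684 CPM in WT and 16.1 ± 1.28 CPM in *Hbb*-cKO without overlap (log2 fold change 0.46, adjusted p = 0.368 in edgeR). *Wfikkn2*, which encodes a binding protein of myostatin and GDF11, was at 6.48 ± 1.17 and 3.74 ± 0.317 CPM (-0.79, adjusted p = 0.357 in edgeR), also without overlap. The antagonist *Fst*, follistatin, was at 21.7 ± 2.53 and 20.8 ± 1.27 CPM (-0.06), and the receptor gene *Acvr2b* was at 3.07 ± 0.574 and 2.82 ± 0.113 CPM (-0.13). The activin subunit gene *Inhba* (0.27) and the receptor gene *Acvr1b* (-0.20) overlapped between genotypes.

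Of the sarcomere genes 7 were higher and 17 lower, and 6 had an unadjusted p under 0.05 in edgeR (1 higher and 5 lower). The groups of 4 did not overlap and the median of -0.30 was the lowest of the 7 lists. *Acta1*, skeletal α-actin, was at -0.38, the perinatal myosin gene *Myh8* at -0.35, the embryonic myosin gene *Myh3* at 0.44 and titin, *Ttn*, at 0.14, each with overlap. Without WT replicate 3 they were at -0.17, 0.07, 0.72 and 0.75, and the list's median was 0.10. The myosin genes *Myh2* of fast fibres (0.89, adjusted p = 0.241 in edgeR, 0.0134 in DESeq2) and *Myh7* of slow fibres (0.76, adjusted p = 0.521 in edgeR) were higher without overlap. *Actn3* (-0.49, adjusted p = 0.371 in edgeR) and *Myl1* (-0.40, adjusted p = 0.470 in edgeR) were lower without overlap.

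Marker sums of other cell types were recorded beside these values. The summed chondrocyte markers ranged from 33070 to 42874 CPM in WT and from 17580 to 56868 CPM in *Hbb*-cKO, and 11 of 11 were tested. Melanocyte and glial markers summed to 116 to 244 CPM and 112 to 118 CPM, with 6 of 9 tested, *Dct* at 4 to 12 counts and *Tyr* at 0 to 2 counts. All 6 tested were lower by sign, and *Pmel* did not overlap (2.50 and 1.37 CPM, log2 fold change -0.87, adjusted p = 0.353 in edgeR). *S100b*, on average the most abundant of them, was lowest in *Hbb*-cKO replicate 1 (30.9 CPM) and highest in *Hbb*-cKO replicate 2 (72.0 CPM), as was *Col2a1*. Fat markers summed to 75.5 to 209 CPM and 126 to 243 CPM, with 5 of 6 tested. Neutrophil markers, 8 of 8 tested, summed to 19.9 to 40.2 CPM and 28.4 to 127 CPM. Of these, 8 of 8 were higher by sign with a median log2 fold change of 1.79, and 7 of 8 had an unadjusted p under 0.05. EdgeR called none and DESeq2 called *Ngp* and *Ltf*. The groups of 1 of 8 did not overlap, beside 17.7% of all tested genes. The neutrophil sum was 127, 28.4 and 108 CPM in *Hbb*-cKO replicates 1 to 3, so replicate 2 lay inside the WT range. Proliferation genes summed to 226 to 274 CPM in WT and 394 to 453 CPM in *Hbb*-cKO, 8 of 8 without overlap. None of the 8 was called in edgeR, the lowest adjusted p being 0.072 for *Mki67*, although DESeq2 called 4 of them and the unadjusted p was under 0.05 for 8 of 8. Smooth muscle and tendon sums overlapped between genotypes, at 569 to 666 and 599 to 737 CPM for smooth muscle and at 3452 to 4568 and 3950 to 4318 CPM for tendon. The part of any of these cell types in the values of the members was not tested.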

How the data were processed

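Libraries were polyA RNA from 3 WT and 3 *Hbb*-cKO samples. Per the labels, the authors' processing notes list fastp 0.19.5, CASAVA 1.8, StringTie, HISAT2 2.1.0 and edgeR, with no roles or order. The unit of the deposited table is counts per gene, whole numbers without normalization, and no build, strand or counting setting was given in the sources used here. Positions of genes matched GENCODE M21 (GRCm38) for 99.4% of the 55227 IDs compared, and exon lengths were taken from it. Without stated strand or multi-mapping settings, reads shared with overlapping or related genes cannot be separated, and no member exon overlapped an exon of another gene.

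Genes were kept by filterByExpr (minimum count 10, minimum total 15) and tested with the edgeR 4.0.16 quasi-likelihood test (R 4.3.3, TMM scaling, Benjamini-Hochberg over all 17175 genes, threshold 0.05). CPM used TMM-scaled library sizes. Ratios to the sarcomere sum and between members were compared by two-sided exact permutation tests. Alternatives were DESeq2 1.42.0, RLE scaling, other count filters, a replicate block, a Y-linked covariate and leaving out each library. The fit was tested on simulated data with 200 changed genes. No libraries were duplicates, since all 15 pairs differed by more than sampling noise.

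Members and lists were chosen with earlier results of these data known. Named genes were all members, up to 4 genes of each of 6 related lists with the smallest p, defining genes of those lists, 4 sarcomere genes, the most abundant 2 of each other cell type and the genes most like each member. *Dct*, *Tyr* and *Pmel* of the glial and melanocyte list and *Ngp* and *Ltf* of the neutrophil list fall outside that rule. So do *Myh2*, *Myh7*, *Actn3*, *Myl1*, *Xist* and the Y-linked genes. All of these were named or counted after their values were seen. Some genes that the rule names are not reported here.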

Additional observations from a re-analysis of the deposited data

How the results depend on the processing

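No member passed the threshold in any alternative, and the lowest adjusted p was 0.118, for *Myf6* with the Y-linked covariate (edgeR). The number of genes past the threshold was 18, against 249 with DESeq2, 60 with no filter, 49 with the Y-linked covariate and 4 with the replicate block. It ran from 1 to 39 when each library was left out (1 without WT replicate 1, 39 without WT replicate 3, 6 without *Hbb*-cKO replicate 2 and 2 without *Hbb*-cKO replicate 3), and the cause was not tested. Libraries of the same replicate number showed no likeness (correlations of deviations from the group mean -0.03, -0.11 and -0.03). With 3 libraries a group this cannot exclude a pairing by number. The block changed no call of a member. With the Y-linked covariate the log2 fold changes turned to -0.33 for *Myf5*, -0.011 for *Myog* and -0.43 for *Mstn*. These values rest mainly on WT replicate 3 as the WT library. Leaving out 1 library gave -0.16 to 0.071 for *Pax7*, -0.022 to 0.68 for *Myf5*, -0.60 to 0.10 for *Myf6*, -0.13 to 0.071 for *Myod1*, -0.24 to 0.051 for *Mymk* and -0.13 to 0.38 for *Mstn*, and -0.19 to 0.16 for the ratio of *Myf6* to the sarcomere sum. The list medians ran from -0.021 to 0.14 (satellite), -0.11 to 0.16 (upstream and partner factors), -0.03 to 0.03 (repressors), -0.060 to 0.024 (fusion), -0.55 to 0.11 (synapse), -0.08 to 0.05 (myostatin pathway) and -0.43 to 0.10 (sarcomere). The ratios between members and the correlations with the sarcomere sum were added after seeing the data.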

Other observations

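The genes whose log2 CPM was most like each member over the 6 libraries, among 14412 genes, were *Ppp1r12b* (Pearson r = 0.995), *Cmya5* and *Neb* for *Pax7*, *Btbd1* (r = 0.994), *Gm6123* and *Ucp3* for *Myf6*, and *Gja3* (r = 0.994), *Hadha* and *Npnt* for *Myog*. For *Myf5* they were *Cdc73* (r = 0.995), *Atp8a1* and *Col23a1*, for *Myod1* *Chtf8* (r = 0.986), *H2bc6* and *Pld1*, for *Mymk* *Eef1a2* (r = 0.991), *Cyc1* and *Abl1*, and for *Mstn* *Chd1l* (r = 0.996), *Eed* and *Hspa9*. These are descriptions over 6 libraries of 2 genotypes picked as the highest of many genes, and they share library and depth. The genes with the lowest r included *Taf10* for *Pax7* (-0.997), *Mgmt* for *Myf5* (-0.990) and *Lrfn4* for *Myf6* (-0.992). Among the members themselves, r was highest between *Myf5* and *Myog* (0.934) and between *Pax7* and *Myf6* (0.931), and lowest between *Myod1* and *Mstn* (-0.0476).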
